A study of Mus musculus with 3 samples.

Results

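The genes described here encode the machinery that cuts proteins into peptides and loads these onto MHC class I molecules. They are Psmb8, Psmb9, Psmb10, Psme1, Psme2, Tap1, Tap2, Tapbp, B2m, and Ubd, chosen by name as all probes of the array design that carried one of these gene names and were not control spots. These 10 genes, of 33597 gene names measured on all arrays, were covered by 13 probes and 32 spots on each array. The study stimulated bone marrow-derived macrophages (BMDMs) of C57BL/6J mice for 20 h and compared 3 conditions with 1 Agilent 1-colour expression array each, in a search for genes behind the engulfment of live cells. The conditions were CpG (0.063 μg/ml), IFN-γ + αIL-10R (IFN-γ at 100 U/ml), and all of these agents together (Triple). CpG is a short DNA that activates TLR9, IFN-γ is a cytokine of T and NK cells, and αIL-10R is a blocking antibody to the IL-10 receptor. BMDMs of all conditions were grown with M-CSF from conditioned medium of L929 cells. The αIL-10R antibody was never given without IFN-γ, so the effects of these agents cannot be told apart, and no unstimulated culture was among the arrays analysed here.

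Proteasomes degrade ubiquitin-tagged proteins in a barrel whose catalytic work is done by the subunits Psmb5, Psmb6, and Psmb7. Under IFN-γ, cells make the alternative subunits Psmb8, Psmb9, and Psmb10, which take the same places in newly built particles and give the immunoproteasome, while Psme1 and Psme2 form the PA28 cap that opens the barrel. The products enter the endoplasmic reticulum through the transporter Tap1-Tap2, and tapasin (Tapbp) holds empty class I molecules at that transporter, where the heavy chain and its light chain B2m receive a peptide. Ubd encodes FAT10, a ubiquitin-like protein that also marks proteins for the proteasome. Macrophages carry out all of these steps and raise them when activated.

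With a single array for each condition, differences between arrays have no replicate check, and no test between conditions was possible. Values are the scanner software's processed signals, on a linear scale with background subtracted, and log2 fold changes were taken after scaling each array to its 75th percentile. A gene was called higher or lower when it differed more than 2-fold and was well above background in the array where it was brighter. The only available yardstick was technical, as replicate spots of the same probe gave a technical SD of 0.14 to 0.16 for a log2 fold change between single spots of 2 arrays. It does not pair the spots, so it contains differences between spots that last from array to array and may be too large. All arrays lay on 1 slide with 1 scan time, no spot was saturated, and 44.4% to 46.0% of the spots were well above background. The 6 macrophage markers measured were well above background on every array, with Csf1r at 159074 to 230482, but 4 of them passed 2-fold in a comparison. Cd14, a co-receptor for bacterial ligands, was 16.8-fold higher in Triple and 9.84-fold higher in CpG than in IFN-γ + αIL-10R, and Cd68 was 2.25-fold lower in Triple than in IFN-γ + αIL-10R. Itgam was 2.51-fold higher and Fcgr1 2.08-fold lower in CpG than in IFN-γ + αIL-10R. The part of these differences in the values below was not tested. Of the 17 markers of T, B, and NK cells, neutrophils, and fibroblasts measured, 8 were well above background on the CpG array, 6 on the IFN-γ + αIL-10R array, and 8 on the Triple array. Signals of different probes are not comparable, so that each gene is compared only with itself between arrays. Sums over markers, given below as a description, mostly reflect their brightest gene.

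Psmb9 and Tap1 lie next to each other on chromosome 17 and are read in opposite directions from starts 226 bases apart, and Psmb8 and Tap2 follow in the same cluster of the MHC class II region. Psme1 and Psme2 are separated by 1 protein-coding gene, Emc9, on chromosome 14. The promoter windows shown were chosen because these genes moved together between the arrays, or, for Ubd and B2m, because they departed from the rest. Windows run from 250 bases before to 50 after the start in RefSeq (GRCm38.p6), 5′ to 3′ on the strand of the gene. Capitals mark letters that match 1 of 3 motifs on either strand: GAS (TTCNNNGAA, an element of genes that respond to IFN-γ), the IRF core (AANNGAAA), and the NF-κB motif. The Psmb9 window (minus strand, chr17:34187281-34187580) shares 275 bases with the Tap1 window (plus strand, chr17:34187306-34187605), so that the Tap1 window stands for both. The other windows are Psmb8 (plus strand, chr17:34197945-34198244), Psme1 (plus strand, chr14:55578244-55578543), B2m (plus strand, chr2:122147437-122147736), and Ubd (plus strand, chr17:37193642-37193941).
Tap1: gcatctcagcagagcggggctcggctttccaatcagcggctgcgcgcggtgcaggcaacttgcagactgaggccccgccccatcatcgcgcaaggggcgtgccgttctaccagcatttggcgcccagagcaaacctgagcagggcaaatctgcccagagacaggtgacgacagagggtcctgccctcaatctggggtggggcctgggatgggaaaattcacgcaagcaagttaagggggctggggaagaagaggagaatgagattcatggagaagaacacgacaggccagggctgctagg
Psmb8: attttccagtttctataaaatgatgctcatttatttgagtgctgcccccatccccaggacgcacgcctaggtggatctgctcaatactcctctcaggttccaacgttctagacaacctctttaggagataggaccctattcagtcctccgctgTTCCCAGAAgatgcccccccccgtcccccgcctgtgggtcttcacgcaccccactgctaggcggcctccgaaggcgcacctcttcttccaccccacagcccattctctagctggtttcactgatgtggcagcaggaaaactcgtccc
Psme1: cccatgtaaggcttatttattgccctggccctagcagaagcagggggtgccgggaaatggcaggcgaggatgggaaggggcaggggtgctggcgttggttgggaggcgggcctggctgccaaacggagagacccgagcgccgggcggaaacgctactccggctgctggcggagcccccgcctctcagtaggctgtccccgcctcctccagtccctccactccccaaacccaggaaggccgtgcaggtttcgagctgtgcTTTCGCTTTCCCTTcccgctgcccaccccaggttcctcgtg
B2m: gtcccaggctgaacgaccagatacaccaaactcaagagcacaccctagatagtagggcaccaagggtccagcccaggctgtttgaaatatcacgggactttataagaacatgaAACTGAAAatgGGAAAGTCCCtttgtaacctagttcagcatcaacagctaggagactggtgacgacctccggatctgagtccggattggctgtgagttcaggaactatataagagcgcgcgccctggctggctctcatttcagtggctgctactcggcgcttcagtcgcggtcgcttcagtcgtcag
Ubd: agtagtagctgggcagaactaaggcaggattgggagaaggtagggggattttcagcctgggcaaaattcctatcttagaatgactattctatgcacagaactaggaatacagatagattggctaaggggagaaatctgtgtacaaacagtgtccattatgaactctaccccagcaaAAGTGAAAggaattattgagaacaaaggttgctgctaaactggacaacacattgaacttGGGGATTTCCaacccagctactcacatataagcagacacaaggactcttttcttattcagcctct

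Promoter windows were found for 9 of the 10 genes, all but Tap2. GAS letters were in 1 of the 9 (Psmb8, at position -97 from the start), against 8.30% of all 32851 windows of this length. IRF core letters were in 3 of the 9 (Psme1, B2m, and Ubd), against 23.9% of all windows, and the 2 matches in Psme1 overlap each other just after the start. The NF-κB motif was in 2 of the 9 (B2m and Ubd), against 8.46% of all windows. In Ubd it begins at position -15 from the start, and in B2m at position -126, next to the IRF core match. The windows of Psmb9, Psmb10, Psme2, Tap1, and Tapbp held none of these letters. A match is a description of sequence and was not set against any measure of binding.

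The inducible catalytic subunits were low in CpG and at similar signals in the arrays that contained IFN-γ. The probes behind these values are shown for Psmb8 (mm9, plus strand, chr17:34337771-34337830) and Psmb9 (mm9, minus strand, chr17:34319174-34319233), together with that of Tap1 (mm9, plus strand, chr17:34330854-34330913), since the 3 genes are neighbours measured by separate oligos.
Psmb8: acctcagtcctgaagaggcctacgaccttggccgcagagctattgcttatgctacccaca
Psmb9: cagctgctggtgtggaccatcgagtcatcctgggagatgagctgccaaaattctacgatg
Tap1: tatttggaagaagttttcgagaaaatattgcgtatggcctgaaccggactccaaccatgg
Psmb8, the inducible chymotrypsin-like subunit that replaces Psmb5, had a signal of 29803 in CpG, 84423 in IFN-γ + αIL-10R, and 80809 in Triple. Psmb9, which replaces Psmb6, had 17660, 69645, and 64302 in the same order, and Psmb10, which replaces Psmb7, had 48846, 170469, and 148997. Thus CpG was the lowest array for each of the 3 subunits. Psmb8 was 2.88-fold lower, Psmb9 4.01-fold lower, and Psmb10 3.55-fold lower in CpG than in IFN-γ + αIL-10R. Between Triple and CpG the folds were 2.82, 3.78, and 3.17, in the same order, with Triple higher, and between Triple and IFN-γ + αIL-10R the log2 fold changes were -0.03, -0.08, and -0.16, all within 2 technical SDs of 0. With spike-in scaling the last value, that of Psmb10, was -0.30, beyond 2 technical SDs. The single spot of Psmb8 was in row 23 of the 384 rows of the array. Among genes with a single spot, 8.37% in the first 48 rows were called lower in CpG than in IFN-γ + αIL-10R, against 5.41% in the other rows, and the part of this difference in the value of Psmb8 was not tested. The spots of Psmb9 and Psmb10 were in rows 325 and 236. A second Psmb9 probe, made for an Ensembl transcript, was dim, with 10.1 in CpG (not well above background), 54.0 in IFN-γ + αIL-10R, and 80.3 in Triple.

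**Figure D1:**
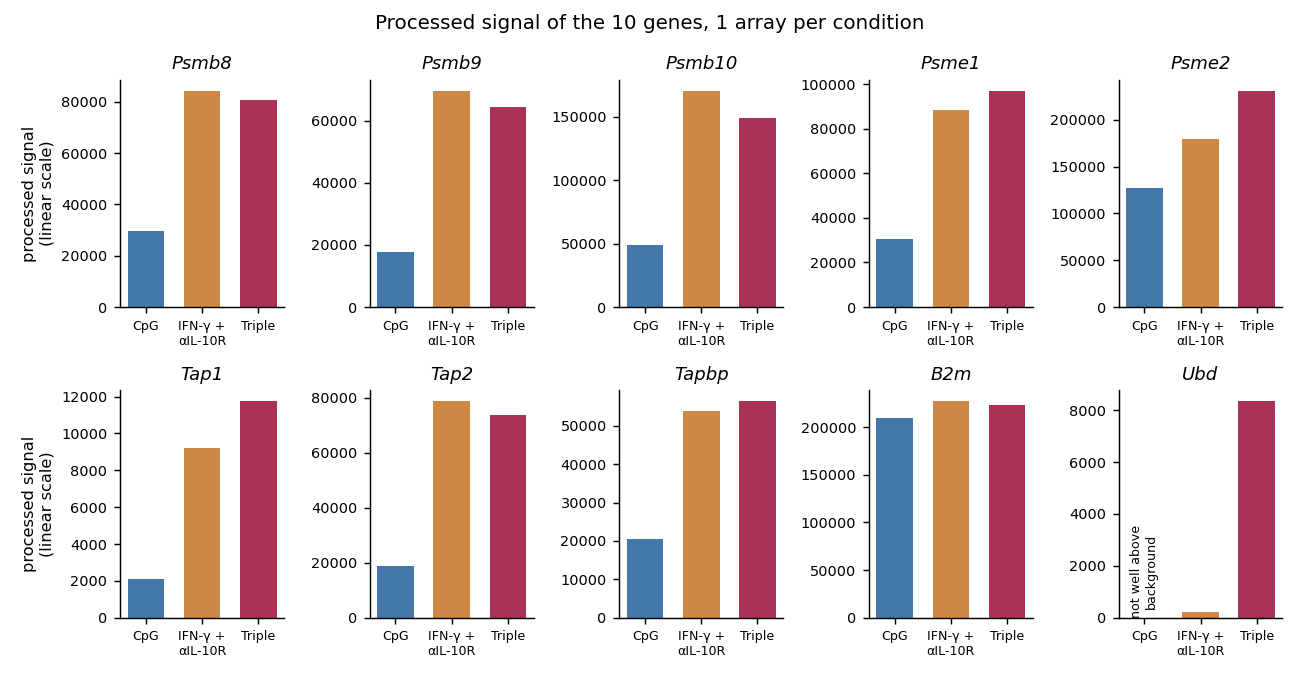
Processed signal (linear axis from 0) of the 10 genes on the 3 arrays, with a bar for each array and a panel with its own axis for each gene. CpG is the lowest array in every panel, the other 2 arrays are near each other for most genes, and Ubd stands alone with a signal of 8346 in Triple against 232 in IFN-γ + αIL-10R.

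Their constitutive counterparts did not follow this order. Psmb5 had 24480 in CpG, 18435 in IFN-γ + αIL-10R, and 31015 in Triple, Psmb6 had 79343, 64723, and 94487, and Psmb7 had 12079, 12498, and 16682. None of the 3 passed 2-fold in any comparison. For Triple over CpG their log2 fold changes were 0.40, 0.31, and 0.52, and the inducible partner exceeded these by 1.10 (Psmb8 and Psmb5), 1.61 (Psmb9 and Psmb6), and 1.14 (Psmb10 and Psmb7). These differences correspond to a 2.14-, 3.06-, and 2.21-fold change of the ratio of inducible to constitutive signal, against a technical SD of 0.22 on the log2 scale. For CpG over IFN-γ + αIL-10R the differences were -1.91, -2.27, and -1.75. For Triple over IFN-γ + αIL-10R the inducible subunits stayed near 0 while Psmb5, Psmb6, and Psmb7 had 0.78, 0.58, and 0.45, so that the differences were -0.81, -0.66, and -0.61, each more than 2 technical SDs (0.20 each) below 0. With the dim second probe of Psmb9 in place of the first, the difference from Psmb6 was 0.03 for Triple over IFN-γ + αIL-10R. The ratio of inducible to constitutive signal was thus, with the brighter probe of each gene, lowest in CpG and highest in IFN-γ + αIL-10R for all 3 pairs, a measure that no scaling common to an array can change. Psmb11, the catalytic subunit of thymic epithelium, was not well above background on any array.

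**Figure D2:**
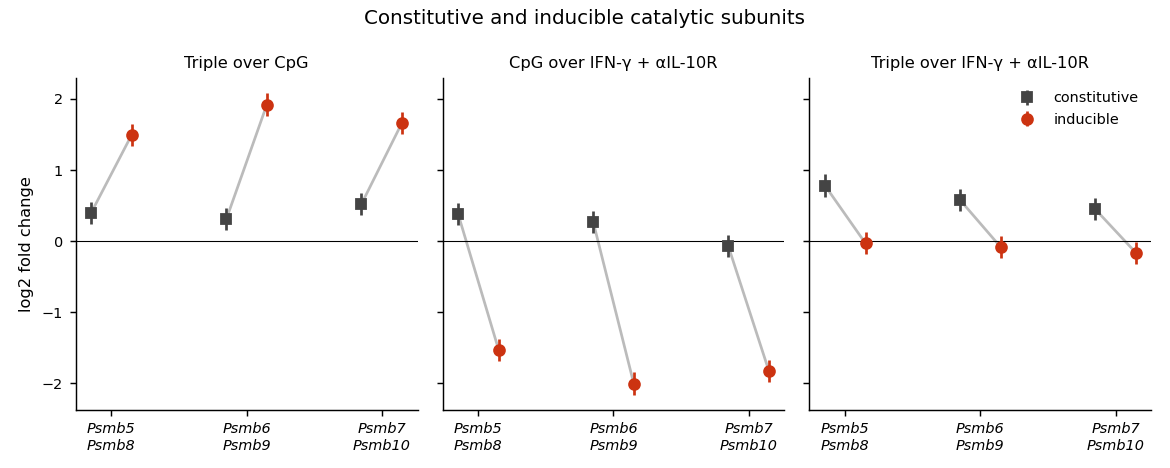
Log2 fold change of the constitutive (squares) and inducible (circles) catalytic subunits in the 3 comparisons, 1 pair per position, with bars of 1 technical SD from replicate spots. The inducible subunit lies above its partner for Triple over CpG (by 1.10 to 1.61) and below it in the other comparisons.

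Of the PA28 subunits, Psme1 had 30380 in CpG, 88592 in IFN-γ + αIL-10R, and 97184 in Triple, and was 3.33-fold higher in Triple than in CpG. It was measured by 10 spots on each array, of which 7, 9, and 9 were without an outlier mark. Their signals ran from 29887 to 30834 in CpG, from 84099 to 92705 in IFN-γ + αIL-10R, and from 92736 to 100594 in Triple, so that spot signals did not overlap between the arrays, though those of the last 2 arrays came close. The log2 fold change of 0.16 between Triple and IFN-γ + αIL-10R had an SE of 0.02 over spots. This error covers spots only and not the culture, the RNA, the position of the array on the slide, or the scaling. Under other scalings this log2 fold change lay between 0.03 and 0.28. Psme2 had 127377, 179104, and 231285 with its brightest probe. By this probe it was the member with the smallest difference from CpG after B2m, being 1.89-fold higher in Triple than in CpG and 1.32-fold higher in Triple than in IFN-γ + αIL-10R. Its other probes disagreed in part. A second one had the same order (41759, 62698, and 97807), whereas the remaining one, made for an Ensembl transcript, was highest in IFN-γ + αIL-10R (424, 1993, and 1019). Both passed 2-fold for Triple over CpG (log2 fold changes 1.28 and 1.32), unlike the brightest probe. For CpG over IFN-γ + αIL-10R they had -0.61 and -2.26. The coordinates of the probe made for an Ensembl transcript span 219297 bases, so what it reads is uncertain.

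Of all members but Ubd, the transporter genes differed most between CpG and the other arrays. Tap1 had 2083 in CpG, 9215 in IFN-γ + αIL-10R, and 11750 in Triple, and all 10 of its spots were used on each array. The spots ran from 1974 to 2199 in CpG, from 8880 to 9660 in IFN-γ + αIL-10R, and from 11041 to 12247 in Triple, without overlap between arrays. Tap1 was 5.86-fold higher in Triple than in CpG, 4.50-fold lower in CpG than in IFN-γ + αIL-10R, and 1.30-fold higher in Triple than in IFN-γ + αIL-10R (log2 fold change 0.38, SE over spots 0.02). Under other scalings the log2 fold change of Tap1 in the last comparison lay between 0.25 and 0.50. Tap2 had 18648, 78738, and 73695, and was 4.11-fold higher in Triple than in CpG and 4.30-fold lower in CpG than in IFN-γ + αIL-10R. The transporter subunits therefore shared their low signal in CpG, whereas between Triple and IFN-γ + αIL-10R their log2 fold changes were 0.38 and -0.06. Tapbp had 20636, 53859, and 56415, and was 2.84-fold higher in Triple than in CpG. B2m differed little, with 209398, 227071, and 223258. Its 2 spots were 181891 and 241065 in CpG, 208891 and 246834 in IFN-γ + αIL-10R, and 191867 and 259784 in Triple, so that the arrays overlapped. The same spot was the dimmer on every array, and each spot was brighter in Triple than in CpG. The log2 fold change of 0.15 between Triple and CpG had an SE over spots of 0.30. This SE does not pair the spots, so it contains their lasting difference and is too large. No paired SE was computed.

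**Figure D3:**
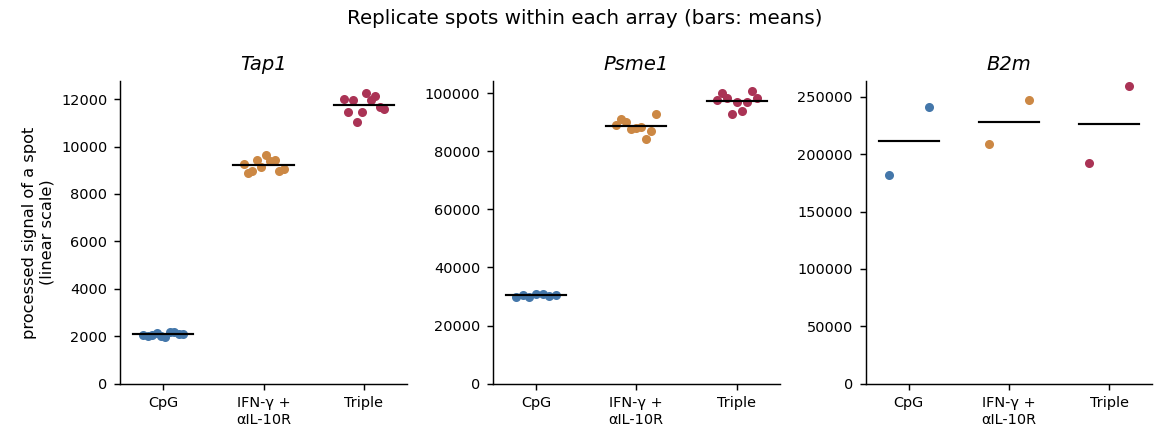
Processed signal (linear axis from 0) of the single spots of Tap1, Psme1, and B2m on each array, with the mean as a bar. Spots of Tap1 and Psme1 are separated between all arrays, whereas those of B2m overlap.

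Ubd was the member for which Triple departed from IFN-γ + αIL-10R. Its signal was not well above background in CpG, 232 in IFN-γ + αIL-10R, and 8346 in Triple. Triple was 36.8-fold higher than IFN-γ + αIL-10R and at least 365-fold higher than CpG, and IFN-γ + αIL-10R was at least 9.92-fold higher than CpG. Bounds were taken against the lowest signal well above background on the CpG array, 23.8. On the log2 scale these bounds are 8.51 for Triple over CpG and -3.31 for CpG over IFN-γ + αIL-10R. They depend on the background correction, since after normexp correction, which adds an offset of 50 to every signal, the log2 fold changes were 6.65 and -1.81. Ubd was measured by 1 spot on each array, so that no spread over spots is known for it.

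Counted over the 10 members, 8 were called higher in Triple than in CpG and 0 lower, where 7.47% of the genes well above background in either array were called higher and 8.34% lower. Psme2, by its brightest probe, and B2m were the members not called. In CpG, 8 members were called lower and 0 higher than in IFN-γ + αIL-10R, where 5.84% of all such genes were called lower and 5.06% higher, and the uncalled members were again Psme2 and B2m. In Triple, 1 member (Ubd) was called higher and 0 lower than in IFN-γ + αIL-10R, against 6.57% and 9.31% of all such genes. The median log2 fold change of the members was 1.70 for Triple over CpG, -1.70 for CpG over IFN-γ + αIL-10R, 0.05 for Triple over IFN-γ + αIL-10R, against medians of -0.05, 0.00, and -0.04 for the 15894 genes that all arrays detected well above background. Each array enters a pair of these comparisons, so that their values are not independent. For Triple over IFN-γ + αIL-10R, 7 of the 10 members were within 2 technical SDs of 0, and Psme2, Tap1, and Ubd were beyond it. This split depends on the processing. With spike-in scaling, Tap1 (0.25) and Psme2 (0.27) were within 2 technical SDs and Psmb10 (-0.30) was beyond. With the mean over probes, Psme2 (0.05) was within 2 technical SDs. This SD is that of single spots. For Psme1, 1 of the 7, the mean over 9 spots on each array gave 0.16 with an SE over spots of 0.02. That SE leaves out the choice of scaling, which moved the value between 0.03 and 0.28.

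**Figure D4:**
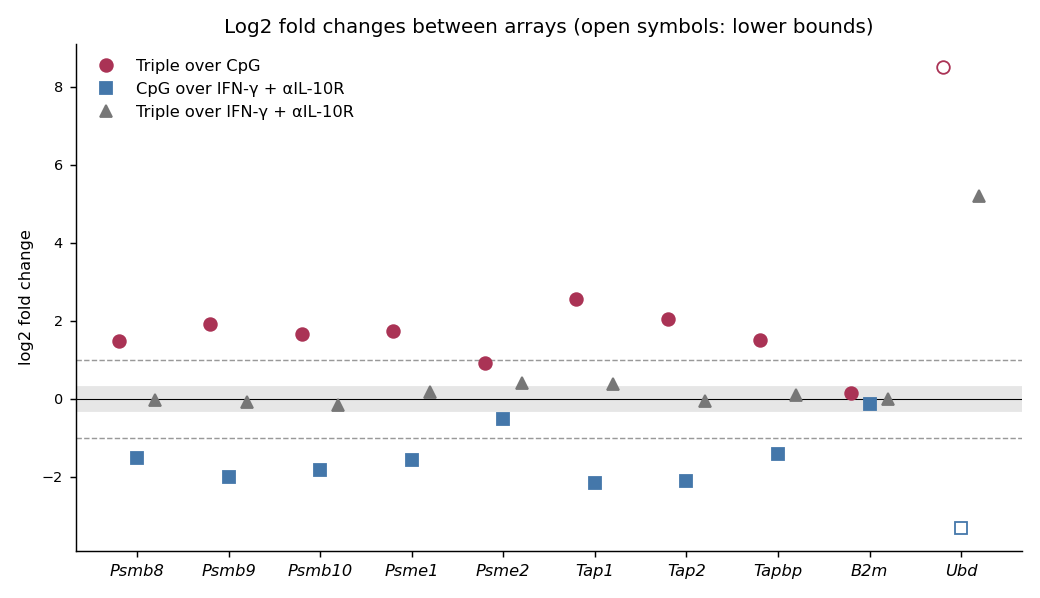
Log2 fold change of the 10 genes in the 3 comparisons. The grey band spans 2 technical SDs of single spots around 0, dashed lines mark 2-fold, and open symbols are lower bounds. Triple over CpG and CpG over IFN-γ + αIL-10R lie on opposite sides of the dashed lines for all genes but Psme2 and B2m, and Ubd is the only gene with Triple over IFN-γ + αIL-10R beyond 2-fold.

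The other proteasome lists had medians nearer to 0 than the members between CpG and the arrays with IFN-γ. Of 11 other subunits of the 20S core, 0 were called in either direction for Triple over CpG, and all 11 had log2 fold changes above 0 (median 0.36, 0.09 to 0.75). Against IFN-γ + αIL-10R, their median was -0.14 in CpG and 0.17 in Triple. The 1 core subunit called in the other comparisons was Psma6, with 44206 in CpG, 19060 in IFN-γ + αIL-10R, and 48482 in Triple, which was 2.28-fold higher in CpG and 2.60-fold higher in Triple than in IFN-γ + αIL-10R. Of 18 subunits of the 19S regulator, which recognizes and unfolds ubiquitinated proteins, 0 were called in any comparison, and their median log2 fold change was 0.18 for Triple over CpG and 0.38 for Triple over IFN-γ + αIL-10R. The latter had values above 0 for 17 of the 18 subunits. Among 7 other regulators and assembly factors, 1 was called: Psme3, which encodes the nuclear PA28γ cap, had 5919 in CpG, 8799 in IFN-γ + αIL-10R, and 16127 in Triple, 2.83-fold higher in Triple than in CpG. Pomp, the assembly chaperone of the core particle, had 32562, 53706, and 48881, and its log2 fold change for Triple over CpG was 0.64.

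Peptide trimming and loading cofactors split. Of 8 measured, 1 was called: Tapbpl, which encodes the peptide editor TAPBPR, had 892 in CpG, 9078 in IFN-γ + αIL-10R, and 7865 in Triple, and was 9.17-fold higher in Triple than in CpG. Erap1, which trims peptides in the endoplasmic reticulum, had 393, 710, and 692, with a log2 fold change of 0.87 for Triple over CpG. Tapbpl was also the 1 cofactor called for CpG over IFN-γ + αIL-10R (10.4-fold lower), and 0 were called for Triple over IFN-γ + αIL-10R. For the chaperones of the loading complex, the log2 fold changes for Triple over CpG were 0.12 (Calr), -0.18 (Canx), and 0.17 (Pdia3), and those for Triple over IFN-γ + αIL-10R were -0.31, 0.10, and -0.65. Pdia3 was brightest in IFN-γ + αIL-10R (10989, 19094, and 11909).

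In the list of class I heavy chains, the partners of B2m, and their transactivator Nlrc5, all 15 genes for which a fold could be given had log2 fold changes above 0 for Triple over CpG (median 0.73), and 4 of the 15 were called. These were Nlrc5 (2314 in CpG, 9603 in IFN-γ + αIL-10R, and 12163 in Triple), H2-Q5 (16830, 30430, and 64841), H2-Q10 (10853, 28162, and 24770), and H2-T10 (6569, 12104, and 13136). H2-T3, which is not among the 15, was well above background in CpG alone (26.0). That was too near the lowest such signal for a fold, so no direction is given. The classical chains H2-K1 (260041, 318793, and 325525) and H2-D1 (209442, 251152, and 270865) had log2 fold changes of 0.38 and 0.43 for Triple over CpG. Heavy chain genes are near-identical in sequence, and a probe may read several of them, so that values of single heavy chains are uncertain. Nlrc5 was 5.46-fold higher in Triple than in CpG, beside 5.86-fold for Tap1. Nlrc5 and H2-Q10 were the 2 genes of this list called lower in CpG than in IFN-γ + αIL-10R, and H2-Q5 was the 1 called higher in Triple than in IFN-γ + αIL-10R. Of these calls, both of H2-Q10 were lost with the mean over probes (log2 fold change 0.73 for Triple over CpG), that of H2-T10 with 3 other scalings (0.96 to 1.00), and that of H2-Q5 for Triple over IFN-γ + αIL-10R with spike-in scaling (0.99).

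Among 7 genes of ubiquitin-like conjugation, 4 were called higher in Triple than in CpG and 0 lower. Isg15, a ubiquitin-like protein induced by interferons, had 83557 in CpG, 192352 in IFN-γ + αIL-10R, and 213261 in Triple. The conjugating enzyme of Isg15, Ube2l6, had 9859, 23544, and 22460, its ligase Herc6 had 839, 2907, and 4053, and its protease Usp18 had 18597, 23896, and 37265. The call of Usp18 was lost with spike-in scaling (log2 fold change 0.96) and relative to Actb (0.99). In CpG, Isg15, Ube2l6, and Herc6 were called lower than in IFN-γ + αIL-10R, and 0 of the 7 genes were called for Triple over IFN-γ + αIL-10R. The enzymes that conjugate FAT10 did not share the pattern of Ubd: Uba6 had 349, 239, and 314, and Ube2z had 3461, 3222, and 5367, with log2 fold changes of 0.42 and 0.77 for Triple over IFN-γ + αIL-10R.

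Of 12 genes of IFN-γ and TLR signaling, 5 were called higher in Triple than in CpG and 0 lower. Irf1, a transcription factor for many genes of this pathway, had 9196 in CpG, 132675 in IFN-γ + αIL-10R, and 123964 in Triple (log2 fold change of -0.07 for Triple over IFN-γ + αIL-10R). Irf8 had 20183, 77123, and 89361. Nfkb1 had 1139, 1175, and 2265. The NF-κB genes Relb (5434, 2289, and 9078) and Nfkb2 (3602, 1637, and 8163) were lowest in IFN-γ + αIL-10R and were called higher than in IFN-γ + αIL-10R in both CpG and Triple, a different order from that of any of the 10 members. For CpG over IFN-γ + αIL-10R, 4 genes of the list were called lower (Irf1, Irf8, Stat2, and Irf2) and 2 higher (Relb and Nfkb2). Stat2 had 12553, 25096, and 23298, and Irf2 had 1394, 3174, and 2072. The calls of Stat2 (-1.02, to -0.97), of Relb for CpG over IFN-γ + αIL-10R (1.22, to 0.83), and of Nfkb1 for Triple over CpG (1.05, to 0.91) were lost under 1 or more alternatives, the values being log2 fold changes. Jak2, a kinase of the IFN-γ receptor, had 3150, 4952, and 11633, and was, with Relb and Nfkb2, 1 of 3 genes of this list called higher in Triple than in IFN-γ + αIL-10R.

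**Figure D5:**
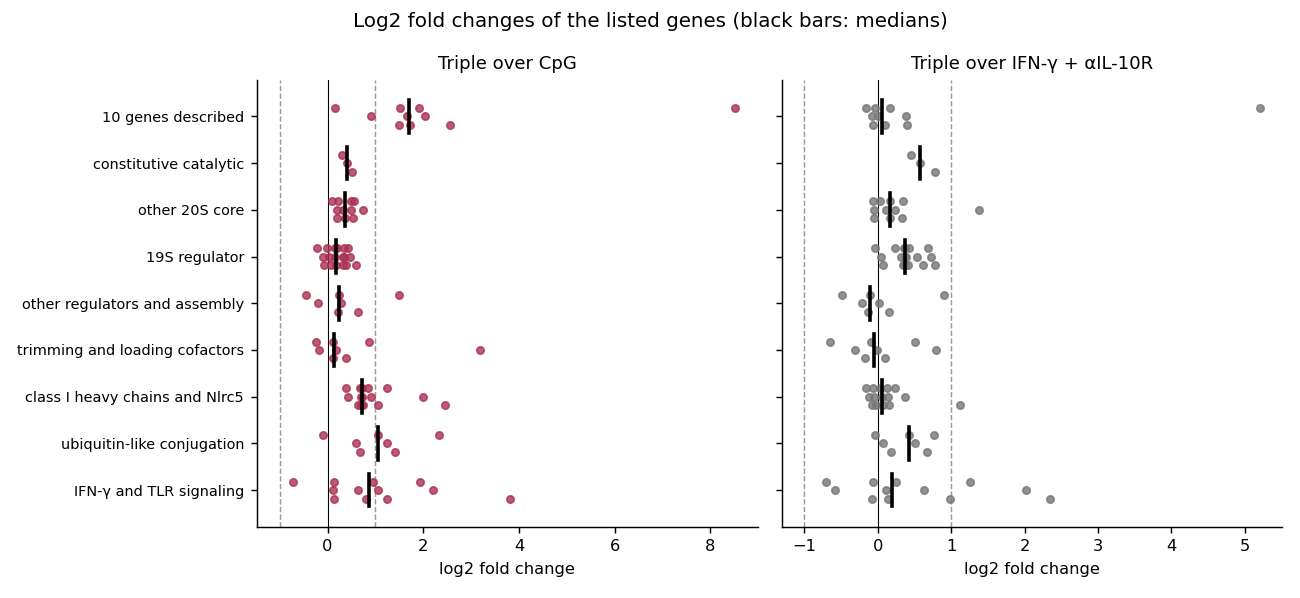
Log2 fold changes of the 10 genes and of 8 related gene lists for Triple over CpG (left) and Triple over IFN-γ + αIL-10R (right), 1 point per gene, with the median of each list as a black bar and dashed lines at 2-fold. On the left the 10 genes have the highest median (1.70), and on the right the medians of all lists lie within 2-fold. Points of Ubd on the left are lower bounds.

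The genes with the pattern most like that of the members were sought over 10014 other gene symbols that were well above background on every array, by the distance of their log2 fold changes for Triple over IFN-γ + αIL-10R and CpG over IFN-γ + αIL-10R from the medians of the 9 members without Ubd (0.01 and -1.57). The closest 5 were Rab3ip (distance 0.09), Traf5 (0.09), Il13ra1 (0.09), Zbp1 (0.09), and Dennd6b (0.09). These distances are below the technical SD of a fold between single spots (0.14), so the choice of these genes is not resolved. Il13ra1 was dim, at 39.3 in CpG, where the lowest signal well above background was 23.8. Zbp1, for example, had 21256 in CpG, 63284 in IFN-γ + αIL-10R, and 66123 in Triple. The pattern rests on 3 arrays.

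Markers of other cell types were set beside these results. The summed signal of 4 T cell markers was 970, 1050, and 968 in the same order of arrays, with Cd3e (858, 869, and 806) and Lck (94.4, 169, and 150) well above background on every array and Cd3g and Cd3d on none. None of 3 NK cell markers was well above background on any array, nor were Ms4a1 and Pax5 of the B cell markers, whereas Cd79a was on all arrays (66.6, 75.5, and 43.6). Of the neutrophil markers, Ly6g was low in CpG and highest in IFN-γ + αIL-10R (555, 7699, and 2658), whereas Elane was highest in CpG (2839, 1615, and 1539) and Mpo was not well above background on any array. Camp had 72.9 in CpG and 139 in Triple and was not well above background in IFN-γ + αIL-10R, at least 2.69-fold and 5.32-fold lower there. The summed signal of these 4 markers was 3483, 9343, and 4342. It is mostly that of Elane in CpG and of Ly6g in the other arrays, and gives no order shared by the markers. The fibroblast marker Col3a1 had 38.8 in CpG and 58.5 in Triple and was not well above background in IFN-γ + αIL-10R, Col1a1 had 177, 94.5, and 98.3, and Pdgfra was not well above background on any array. Of 4 dendritic cell markers, Siglech was at 36076, 35974, and 29736, Flt3 was not well above background on any array, and Zbtb46 (36.3 in IFN-γ + αIL-10R and 133 in Triple) and Xcr1 (60.7 in Triple) were brightest in Triple, as Ubd was, and not well above background in the remaining arrays. Fewer cells of a type and less RNA per cell cannot be told apart in these bulk samples, and the part of the neutrophil, fibroblast, and dendritic cell markers in the results was not tested.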

How the data were processed

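BMDMs of C57BL/6J mice were stimulated for 20 h with CpG, IFN-γ + αIL-10R (αIL-10R at 1.25 μg/ml), or all agents, with 1 Agilent 8 × 60K array per condition. The authors deposited files of the scanner software (Agilent Feature Extraction, version 10.10.1.1), in which the processed signal is a background-subtracted intensity on a linear scale. They also deposited a table of log2 values, in which each array's log2 processed signals are lowered by 1 amount set for that array, with the choice of that amount not given in the sources used here. Probe coordinates are those of the array annotation (mm9).

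Control spots and outlier spots were left out, log2 signals of replicate spots were averaged, and arrays were scaled to the 75th percentile of the 21233 probes for which all 3 were well above background. A probe was well above background if more than 50% of its used spots were. The probe with the highest mean stood for its gene. A dim signal was raised to the lowest signal well above background, which makes its fold a lower bound, and no fold is given where that bound was under 1. Of the 13 member probes, 11 had an accession found in RefSeq (GRCm38.p6). The number of arrays limits the precision, and no p-value is given. The 10 members, the gene lists, and the naming rule (all members, list genes past 2-fold and up to 4 others of each list, and the 5 genes closest in pattern) were chosen with earlier results of these data known. The first 48 rows and the genes named beside the rule were chosen after the values were seen. Some listed genes are not reported here and are left out of the counts of their lists.

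The results were recomputed with normexp correction of the background (limma 3.58.1 in R 4.3.3, offset 50), 5 other scalings, values relative to Actb, the authors' table, the mean over probes, no filter, outlier spots kept, and other thresholds. The code was tested on simulated arrays. Python 3.11.15, numpy 2.4.6, pandas 2.3.3, and matplotlib 3.10.9 were used.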

Additional observations from a re-analysis of the deposited data

How the results depend on the processing

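No paired analysis was possible because there were no replicate arrays to pair. Under the other scalings, background correction, probe rules, and filters, the median log2 fold change of the members stayed between 1.60 and 1.77 for Triple over CpG, between -1.74 and -1.59 for CpG over IFN-γ + αIL-10R, while it lay between -0.08 and 0.17 for Triple over IFN-γ + αIL-10R, so that its sign in the last comparison depends on the scaling. Median scaling moved the median of all genes for Triple over IFN-γ + αIL-10R from -0.04 to 0.06, and spike-in scaling moved it to -0.18. At a 3-fold threshold 5 members were called lower in CpG than in IFN-γ + αIL-10R and 6 higher in Triple than in CpG, and with the mean over probes Psme2 was called as well, which made 9 for each. For CpG over IFN-γ + αIL-10R this call rests on the Psme2 probe made for an Ensembl transcript (-2.26). The other Psme2 probes had -0.52 and -0.61. With the mean over probes the difference between Psmb9 and Psmb6 was -0.32 for Triple over IFN-γ + αIL-10R (-1.88 for CpG over it), and with the second probe of Psmb9 it was 0.026 and -1.48 in the same order. Of 48 calls of listed genes other than the members, 13 were lost under 1 or more of the alternatives that kept the 2-fold threshold, among them that of Camp for CpG over IFN-γ + αIL-10R, those of Zbtb46 and Col3a1 for Triple over IFN-γ + αIL-10R, and both of Xcr1. Of 330 values of member log2 fold changes under alternatives, 320 were within 1 technical SD of those reported, and 0 changed sign beyond 2-fold. These 330 values are not separate checks. A scaling by 1 amount per array moves all members alike within a comparison. Removing the filter and lower limit could move Ubd alone, and the mean over probes could move only Psmb9 and Psme2. The values beyond 1 technical SD were those of Psmb9 and Psme2 with the mean over probes and of Ubd, whose log2 fold change was 4.85 after normexp correction for Triple over IFN-γ + αIL-10R. For Triple over CpG it was 6.65 after that correction and 10.63 without the lower limit, and for CpG over IFN-γ + αIL-10R it was -1.81 after the correction and -5.43 without the limit.

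Counts of all genes moved by more than 1.5 times in some settings. For Triple over IFN-γ + αIL-10R, 2522 genes were called higher and 3088 lower without filter and lower limit, 2410 and 3143 at 1.5-fold, 620 and 822 at 3-fold, and 1100 lower after normexp correction. For CpG over IFN-γ + αIL-10R these were 2369 and 2502, 2049 and 2347, 421 and 515, and, after normexp correction, 554 higher and 708 lower. For Triple over CpG they were 2767 and 3022, 2619 and 3017, 706 and 701, and 916 lower after normexp correction. Signal over background limits Ubd in CpG.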
